A study of Mus musculus with 8 samples.

Results

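The 29 genes described here encode enzymes and regulators of cholesterol and fatty acid synthesis that are controlled by the sterol regulatory element-binding proteins (SREBPs). They were taken by name from a list, and all 29 were among the 24787 genes in the count tables and had at least 1 unique molecular identifier (UMI) in each of 8 tumors. MC38, a C57BL/6 mouse colon carcinoma line, was grown in C57BL/6 mice, per the methods of the study, and the tumors were taken 24 hours after an injection; 3 tumors had received saline, 3 had received free R848 and 2 had received medium R848-BPDs. R848 (resiquimod) is a small-molecule agonist of the endosomal toll-like receptors TLR7 and TLR8, and an R848-BPD is a bottlebrush polymer from which R848 is released as its linker is cleaved, here at the medium rate. Neither the dose nor the age of these mice is in the labels. All tumors carried the same cell line. CD45+ (leukocyte) and CD45- cells of each tumor were separated and loaded with CD45+ cells in excess on Seq-Well arrays, in which single cells are lysed in wells with barcoded beads and each captured transcript is counted once by its UMI.

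The 8 tumors held 5867590 to 12422614 UMIs. Of 10791 barcodes, 9886 passed limits on genes, UMIs and mitochondrial UMIs, and a marker gate placed 772 of them as MC38 cells, 5539 as monocyte/macrophage cells, 371 as dendritic cells (DCs), 271 as T cells and 955 as natural killer (NK) cells. Another 1674 cells met no gate. In MC38 cells the gate rested on Mtap, Rhox5, Col6a2, Col6a1 and Fam159b, each found in 73.3% to 98.8% of them, whereas the keratins of the list, Krt8, Krt18 and Krt7, had 0, 2 and 1 UMIs. Saline replicate 2 stood apart, with 7 DCs, 91.9% of its monocyte/macrophage cells nearer to the macrophage than to the monocyte markers (51.1% to 75.2% in the other tumors) and 46.9% of them with cell cycle transcripts (15.4% to 29.3%). Between the files, 23 barcodes were listed for more than 1 tumor. Without the 59 cells that carried one, each of the 15 counts of called members between treatments given below was the same. Counts were summed per tumor and class, so that a tumor is a replicate, and levels are given as CPM, a gene's share of the class sum on the usual per-1000000 scale, after scaling by the trimmed mean of M values. A lower CPM can mean fewer cells with a transcript or fewer transcripts per cell, which cannot be told apart in such sums. Differences are log2 fold changes from edgeR's quasi-likelihood test, with p-values adjusted over all genes tested in the class and a threshold of 0.05. Both the labels and the methods of the study describe loading by mouse, and p-values measure the spread between these samples.

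As background, SREBPs are made as membrane proteins of the endoplasmic reticulum. When membrane sterols are low, the escort protein Scap carries them to the Golgi, where they are cleaved, and the released part enters the nucleus and binds sterol regulatory elements next to CCAAT boxes and GC boxes in the promoters of lipid synthesis genes. Sterols and Insig proteins hold the complex back. SREBP-2 acts mainly on cholesterol genes and SREBP-1 mainly on fatty acid genes. Toll-like receptor ligands and interferons are known to alter sterol and fatty acid synthesis in macrophages, and proliferating tumor cells make much of their own membrane lipid.

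RefSeq promoter windows on GRCm38.p6, the 250 bases before an annotated transcription start, were matched by symbol for 22 of the 29 genes (27 windows). Letters were searched on both strands. The sterol regulatory element written as TCACNCCAC was in 1 of the 27 windows, that of Hmgcs1, and in 1.05% of all 32851 windows. The CCAAT box (CCAAT) was in 19 of 27 (70.4%) and in 33.8% of all windows, the GC box (GGGCGG) in 19 of 27 and in 32.7%, and the E-box CACGTG in 4 of 27 and in 6.02%. These are matches of letters, and no binding was measured. The promoters of 4 genes on which the results below turn are given 5′ to 3′ in the direction of the gene, with CCAAT or its reverse ATTGG and the sterol regulatory element in capitals. Hmgcs1 (3-hydroxy-3-methylglutaryl-CoA synthase, chr13:119690101-119690350, plus strand) is shown as the window with the element, which lies 137 to 129 bases before the start. Mvd (mevalonate diphosphate decarboxylase, chr8:122443423-122443672, minus strand) had the lowest log2 fold change of the mevalonate genes in MC38 cells, Pmvk (phosphomevalonate kinase, chr3:89454291-89454540, plus strand) was lower in MC38 cells and higher in DCs, and Fasn (fatty acid synthase, chr11:120824548-120824797, minus strand) did not pass the test in MC38 cells. The E-box was in none of these 4 windows.
Hmgcs1: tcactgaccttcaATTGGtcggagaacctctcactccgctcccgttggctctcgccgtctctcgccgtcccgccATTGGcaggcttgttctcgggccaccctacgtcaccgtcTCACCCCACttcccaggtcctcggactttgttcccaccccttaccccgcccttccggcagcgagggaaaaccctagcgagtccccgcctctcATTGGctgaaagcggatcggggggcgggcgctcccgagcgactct
Mvd: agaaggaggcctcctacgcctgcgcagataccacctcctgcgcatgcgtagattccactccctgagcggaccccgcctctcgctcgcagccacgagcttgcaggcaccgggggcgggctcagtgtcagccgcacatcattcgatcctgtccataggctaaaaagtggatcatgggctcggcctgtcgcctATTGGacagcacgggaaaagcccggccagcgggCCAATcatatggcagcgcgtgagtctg
Pmvk: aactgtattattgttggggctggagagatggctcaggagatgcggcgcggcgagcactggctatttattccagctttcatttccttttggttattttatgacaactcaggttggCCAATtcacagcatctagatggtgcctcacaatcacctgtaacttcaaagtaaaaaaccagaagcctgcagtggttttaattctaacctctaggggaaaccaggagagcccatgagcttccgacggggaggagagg
Fasn: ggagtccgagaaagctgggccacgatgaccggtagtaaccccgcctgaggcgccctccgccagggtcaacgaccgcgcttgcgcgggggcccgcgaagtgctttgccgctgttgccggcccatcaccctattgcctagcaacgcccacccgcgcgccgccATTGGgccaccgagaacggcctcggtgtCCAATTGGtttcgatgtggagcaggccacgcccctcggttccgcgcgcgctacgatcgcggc

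The comparison of medium R848-BPDs with saline asks what the prodrug changed in the tumor. In MC38 cells, lipid synthesis genes were lower across the pathway. Of the 28 genes that passed the filter on low counts (Idi1, isopentenyl-diphosphate isomerase, had 36 UMIs in all MC38 cells and did not), 17 fell and 0 rose, where 0.808% of all 9404 genes tested fell. All 28 log2 fold changes were negative, with a median of -0.96, beside a median of -0.00254 over all genes. Summed over the 29 genes, the level was 6476, 5193 and 5741 CPM after saline, 3899, 3754 and 3317 CPM after free R848 and 3452 and 2618 CPM after medium R848-BPDs. The means were 5803 ± 644 (SD, n = 3), 3657 ± 303 (SD, n = 3) and 3035 ± 589.9 (SD, n = 2) CPM, and every treated tumor lay below every saline tumor. For single genes, both medium R848-BPD tumors lay below all 3 saline tumors for 24 of 28 genes, against 13.2% of all genes, and the exceptions were Fads2, Srebf1, Srebf2 and Insig1. By role, 6 of 10 fatty acid genes, 5 of 5 mevalonate genes tested, 5 of 8 genes from squalene to cholesterol and 1 of 5 regulators and sterol transporters fell.

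**Figure D1:**
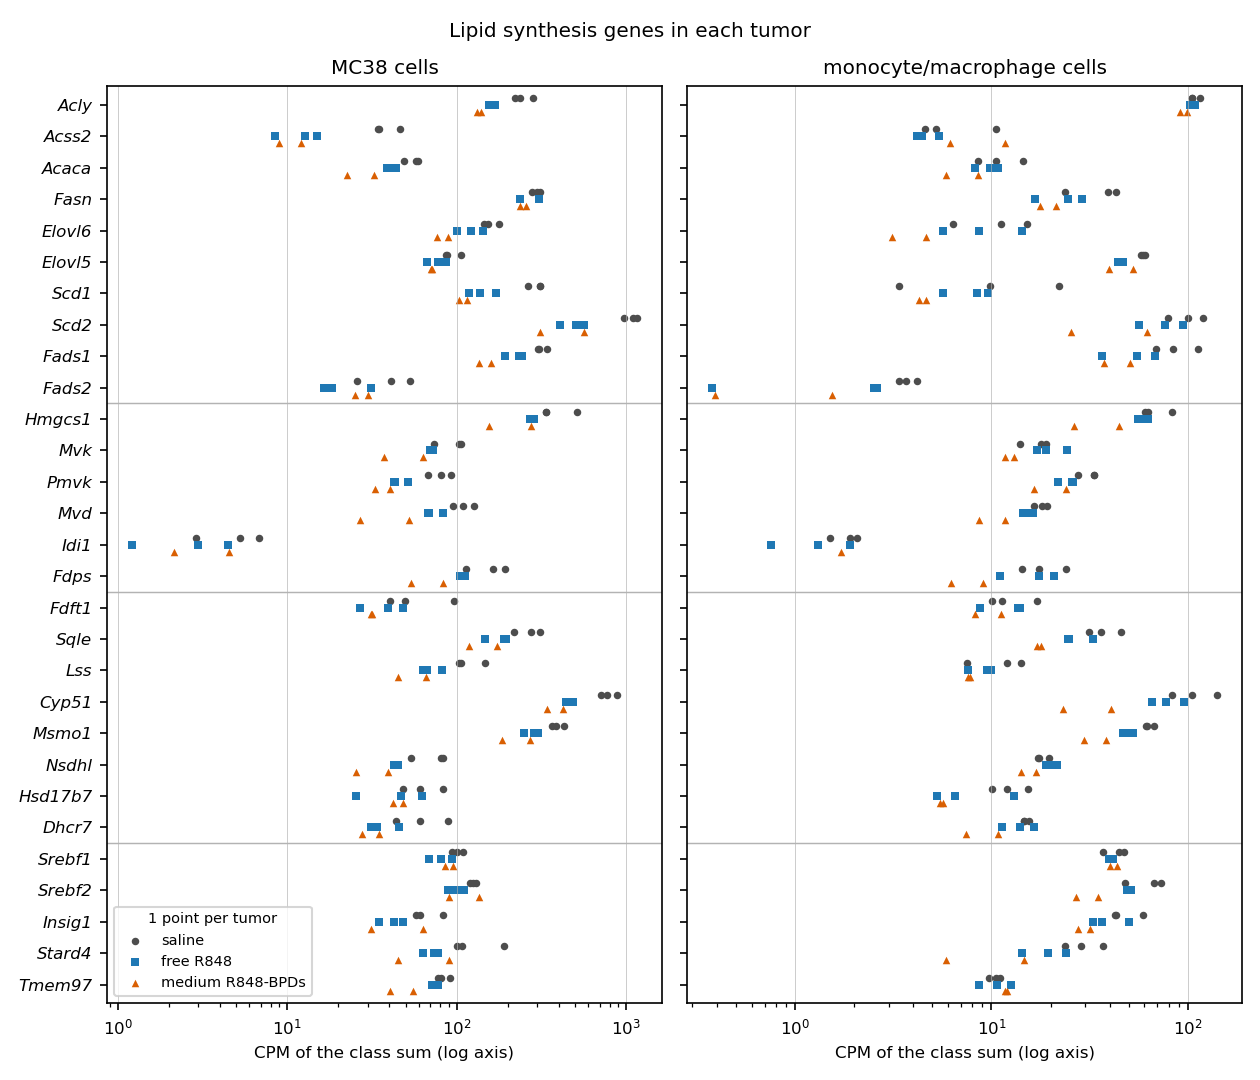
CPM of the class sum (log axis) of each of the 29 genes in MC38 cells (left) and monocyte/macrophage cells (right), 1 point per tumor, for saline (gray circles), free R848 (blue squares) and medium R848-BPDs (orange triangles), with gray lines between the 4 roles; a level of 0 is not drawn. In MC38 cells both medium R848-BPD tumors lie below all saline tumors for 24 of the 28 genes tested.

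**Figure D2:**
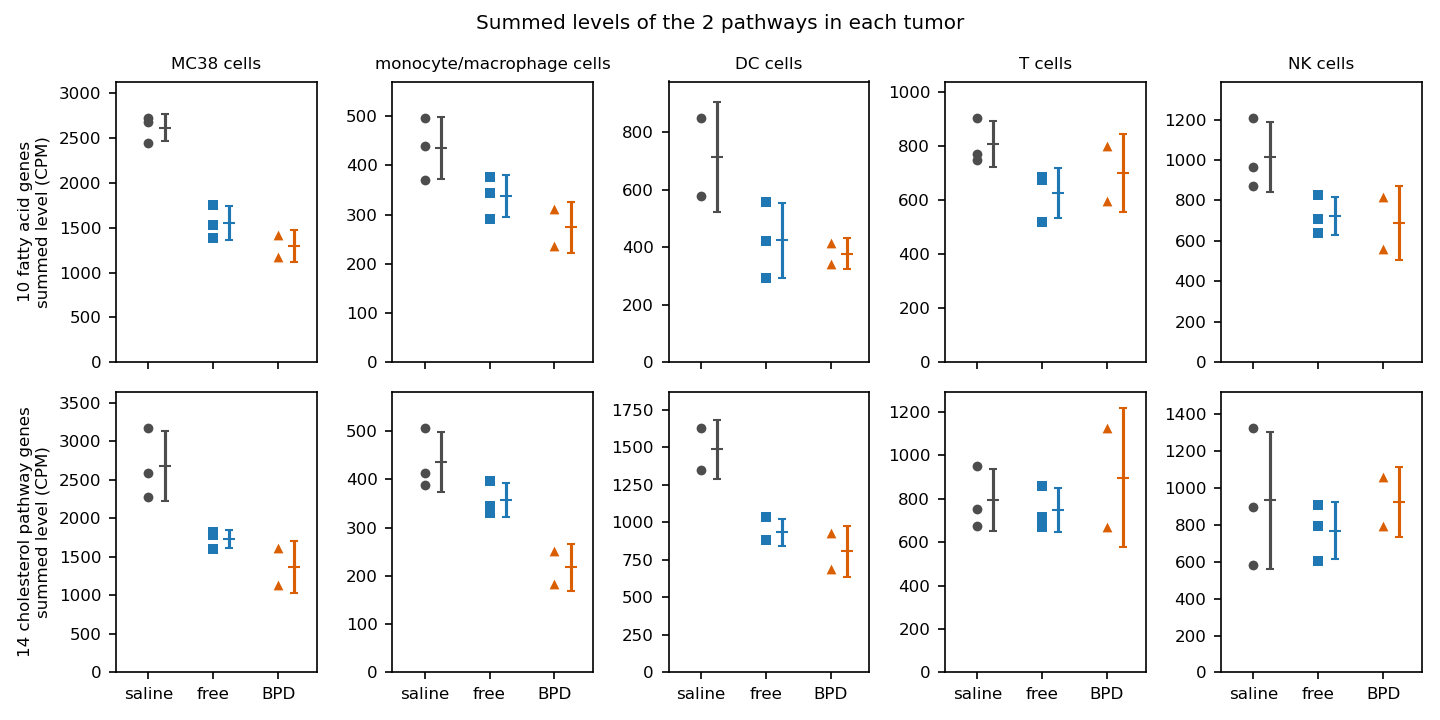
Summed CPM of the 10 fatty acid genes (top) and of the 14 cholesterol pathway genes (bottom) in 5 cell classes, 1 point per tumor for saline, free R848 (free) and medium R848-BPDs (BPD), with the group mean and SD beside the points. In MC38 cells the fatty acid genes sum to 2443 to 2724 CPM after saline, 1384 to 1754 after free R848 and 1171 to 1425 after medium R848-BPDs.

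Among the fatty acid genes, 6 of 10 fell. Scd1 and Scd2, stearoyl-CoA desaturases that place a double bond in saturated fatty acids, are neighbors 87.6 kb apart (Scd1 at chr19:44394455-44407879, minus strand; Scd2 at chr19:44293674-44306864, plus strand, GRCm38), and how reads shared by such paralogs were counted is not given in the sources used here. Scd1 was at 310.1, 263 and 309 CPM after saline, 171, 119 and 138 CPM after free R848 and 115 and 103 CPM after medium R848-BPDs. Its medium R848-BPD tumors were the lowest and its saline tumors the highest, with no overlap between the groups, and against saline it fell by 1.43 on the log2 scale (SE 0.17, adjusted p = 0.00041). Scd2 was at 1103, 972 and 1156 CPM after saline, 564, 509 and 409 CPM after free R848 and 566 and 313 CPM after medium R848-BPDs, which gave a log2 fold change of -1.32 (SE 0.20, adjusted p = 0.00239). Acss2, which makes acetyl-CoA from acetate (chr2:155517948-155585724, plus strand), was at 46.5, 34.4 and 34.7 CPM after saline, 15.01, 12.8 and 8.54 CPM after free R848 and 12.1 and 8.95 CPM after medium R848-BPDs. It had the lowest log2 fold change of the 28 genes, -1.96 (SE 0.33, adjusted p = 0.00516), on 187 UMIs in all. Acly, the ATP citrate lyase that supplies cytosolic acetyl-CoA, was at 283, 238 and 222 CPM after saline, 158, 155 and 169.6 CPM after free R848 and 140.2 and 131 CPM after medium R848-BPDs, a log2 fold change of -0.89 (SE 0.15, adjusted p = 0.00497). Fads1, a desaturase of polyunsaturated fatty acids, and Elovl6, which elongates palmitate, also fell, by 1.07 and 0.90 on the log2 scale (adjusted p = 0.00129 and 0.0152). Acaca, the acetyl-CoA carboxylase that makes malonyl-CoA, missed the threshold at -0.91 (SE 0.22, adjusted p = 0.0507) with no overlap between its saline and treated tumors. Fasn, which uses that malonyl-CoA, was at 311, 297 and 277 CPM after saline, 307, 236 and 236 CPM after free R848 and 256 and 237 CPM after medium R848-BPDs, a log2 fold change of -0.28 (SE 0.15, adjusted p = 0.462), with both medium R848-BPD tumors just below the lowest saline tumor and free R848 replicate 1 among the saline tumors. Elovl5 and Fads2, which act on polyunsaturated chains, were at -0.35 (SE 0.18, adjusted p = 0.433) and -0.66 (SE 0.30, adjusted p = 0.353).

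All 5 mevalonate genes tested fell in MC38 cells. Mvd was at 127, 95.7 and 109.8 CPM after saline, 83.4, 67.5 and 68.3 CPM after free R848 and 52.8 and 26.8 CPM after medium R848-BPDs, a log2 fold change of -1.65 (SE 0.25, adjusted p = 0.00239). The 3 groups did not overlap, and medium R848-BPD replicate 2 was the lowest tumor. Fdps, farnesyl diphosphate synthase, was at 193, 114 and 165 CPM after saline, 105, 113 and 107 CPM after free R848 and 82.9 and 53.7 CPM after medium R848-BPDs, a log2 fold change of -1.26 (SE 0.22, adjusted p = 0.00843). Its free R848 tumors lay just below the lowest saline tumor. Pmvk was at 92.9, 67.7 and 80.9 CPM after saline, 51.6, 43.5 and 42.7 CPM after free R848 and 40.7 and 32.9 CPM after medium R848-BPDs, a log2 fold change of -1.15 (SE 0.22, adjusted p = 0.0117). Hmgcs1 was at 514, 336 and 335 CPM after saline, 285, 285 and 271 CPM after free R848 and 276 and 156 CPM after medium R848-BPDs, a log2 fold change of -0.94 (SE 0.21, adjusted p = 0.0346), and here saline replicate 1 stood above the other saline tumors. Mvk, mevalonate kinase, was at 107, 74.1 and 104 CPM after saline, 72.6, 70.5 and 69.6 CPM after free R848 and 63.3 and 37.6 CPM after medium R848-BPDs, a log2 fold change of -0.99 (SE 0.23, adjusted p = 0.0423).

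From squalene to cholesterol, Cyp51, the lanosterol 14-alpha-demethylase, was at 887, 707 and 774 CPM after saline, 442, 485 and 445 CPM after free R848 and 427 and 341 CPM after medium R848-BPDs. The groups kept this order without overlap, and Cyp51 gave a log2 fold change of -1.05 (SE 0.14, adjusted p = 0.00129). Lss, lanosterol synthase, was at 148, 103 and 107 CPM after saline, 82.2, 66.8 and 63.5 CPM after free R848 and 66.4 and 45.1 CPM after medium R848-BPDs, a log2 fold change of -1.19 (SE 0.22, adjusted p = 0.0112). Msmo1, a sterol-C4 methyl oxidase, was at 432, 365 and 384 CPM after saline, 286, 303 and 250.2 CPM after free R848 and 269.9 and 186 CPM after medium R848-BPDs, a log2 fold change of -0.82 (SE 0.16, adjusted p = 0.0156). Both genes had all treated tumors below all saline tumors. Sqle, the squalene epoxidase, was at 309, 217 and 274 CPM after saline, 189.7, 197 and 146 CPM after free R848 and 173 and 118 CPM after medium R848-BPDs, a log2 fold change of -0.91 (SE 0.19, adjusted p = 0.0229). Nsdhl, which acts with Msmo1 in removing C4 methyl groups, gave -1.22 (SE 0.25, adjusted p = 0.0215). The other 3 genes did not pass: Dhcr7, the 7-dehydrocholesterol reductase, at -1.05 (SE 0.29, adjusted p = 0.0772), Fdft1, squalene synthase, at -0.998 (SE 0.30, adjusted p = 0.118), and Hsd17b7, a 3-ketosteroid reductase, at -0.49 (SE 0.29, adjusted p = 0.516).

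Transcripts of the transcription factors themselves did not follow their target genes past the threshold. Srebf1 was at 94.3, 100.4 and 109.8 CPM after saline, 81.05, 94.5 and 68.3 CPM after free R848 and 85.96 and 95.9 CPM after medium R848-BPDs in MC38 cells, a log2 fold change of -0.12 (SE 0.17, adjusted p = 0.838), and its groups overlapped. Srebf2 was at 124, 119.6 and 130.0 CPM after saline, 99.7, 111 and 89.1 CPM after free R848 and 136 and 90.5 CPM after medium R848-BPDs, a log2 fold change of -0.20 (SE 0.18, adjusted p = 0.716), and medium R848-BPD replicate 1 was its highest tumor. Insig1, which retains SREBPs in the endoplasmic reticulum and is itself a target, was at 83.3, 60.7 and 57.8 CPM after saline, 34.8, 48.01 and 42.7 CPM after free R848 and 63.3 and 31.5 CPM after medium R848-BPDs, a log2 fold change of -0.69 (SE 0.27, adjusted p = 0.252). Stard4, a cytosolic sterol carrier, fell and stood at the threshold, with 191, 107 and 101 CPM after saline, 78.04, 73.5 and 63.5 CPM after free R848 and 90.5 and 45.4 CPM after medium R848-BPDs, a log2 fold change of -1.14 (SE 0.28, adjusted p = 0.0499). Tmem97, a sterol-regulated membrane protein, was at -0.72 (SE 0.19, adjusted p = 0.0652).

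Free R848 against saline, which shares the saline tumors with the comparison above, asks what the unformulated drug changed. In MC38 cells 4 of 28 genes fell and 0 rose, where 0.0744% of all genes (7 of 9404) fell: Scd1 -1.02 (SE 0.15, adjusted p = 0.0125), Scd2 -1.11 (SE 0.17, adjusted p = 0.0158), Cyp51 -0.78 (SE 0.12, adjusted p = 0.0171) and Acss2 -1.59 (SE 0.29, adjusted p = 0.0356). All 28 log2 fold changes were again negative, with a median of -0.56 (all genes -0.00606), and for 21 genes the 3 free R848 tumors lay below all saline tumors, against 7.23% of all genes. Between medium R848-BPDs and free R848, 24 of 28 were negative, with a median of -0.35 (all genes -0.00191). In that comparison 1 gene, Mvd, fell, at -1.09 (SE 0.25, adjusted p = 0.0413), where 0.372% of all genes fell. DESeq2 gave Mvd and 15 other genes no adjusted p and called 1 gene, Fads1. Fads1 at -0.59 (SE 0.15, adjusted p = 0.0604) and Fdps at -0.77 (SE 0.22, adjusted p = 0.0935) came next.

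**Figure D3:**
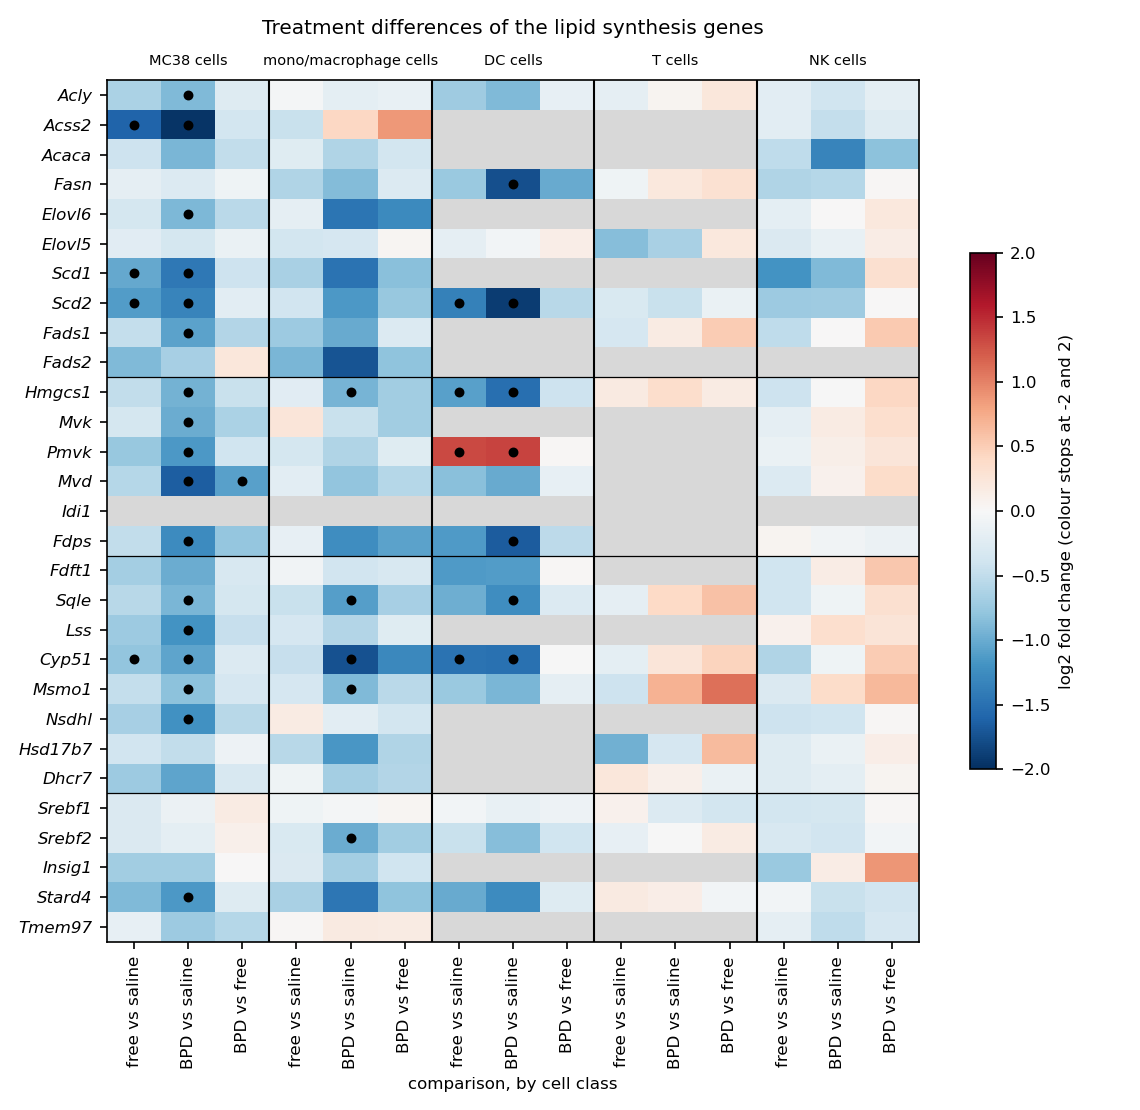
Heat map of the log2 fold change (color, which stops at -2 and 2) of each of the 29 genes (rows, by role) in the 3 treatment comparisons of 5 cell classes, with a dot where the adjusted p is under 0.05 and gray where the gene was not tested. In MC38 cells 17 genes have a dot for medium R848-BPDs against saline and 4 for free R848 against saline, and Pmvk in DCs has the only dots above 0.

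The counts in MC38 cells leaned on single tumors. Against saline, 2 genes (Scd1 and Fads1) were called without medium R848-BPD replicate 2, where the remaining tumor is assumed to vary like the other groups, 8 without saline replicate 1 and 19 without saline replicate 2. For free R848 the count was 0 without free R848 replicate 2 or 3 and 2 without free R848 replicate 1, saline replicate 1 or saline replicate 3, and for medium R848-BPDs against free R848 it was 0 without any one free R848 tumor, medium R848-BPD replicate 2 or saline replicate 3, 3 without saline replicate 2 and 2 when medium R848-BPD replicate 1 was left out. Cells with cell cycle transcripts made up 52.6% to 90.5% of MC38 cells after saline, 81.3% to 94.3% after free R848 and 64.6% to 81.9% after medium R848-BPDs. Without them, 14 genes could be tested, all 14 were negative for medium R848-BPDs against saline with a median of -1.27, and 1 (Scd2) passed. For free R848 against saline 9 of the 14 were negative, with a median of -0.53 and 0 called. Few cells were left in this test. Of the 105 MC38 cells of free R848 replicate 1, 94.3% had cell cycle transcripts, so fewer than the required 10 cells remained there. The loss of calls can therefore not be told apart from a lack of data, and no dependence on the cell cycle is read from it. The 8 MC38 markers summed to 3384 to 3900 CPM after saline, 3085 to 3293 after free R848 and 2494 to 2889 after medium R848-BPDs, and the 8 macrophage markers in these cells to 17.3 to 106, 21.97 to 46.2 and 23.6 to 34.7 CPM. Of the 13 marker lists of other cell types, 3 were lower in all 5 treated tumors than in every saline tumor. The neutrophil markers summed to 137 to 171, 94.2 to 104 and 87.5 to 129 CPM, the osteoclast markers to 158 to 234, 105 to 131 and 118 to 151 CPM and the markers of conventional DCs type 2 (cDC2) to 23.1 to 28.01, 8.25 to 14.4 and 12.9 to 16.6 CPM. The cell cycle genes summed to 2664 to 2982, 2541 to 3263 and 2390.0 to 2611 CPM. The part of these lower sums in the result was not tested.

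In monocyte/macrophage cells, the most frequent class, 4 genes of sterol synthesis and Srebf2 were lower after medium R848-BPDs. Against saline, 5 of 28 genes tested fell and 0 rose, where 2.68% of all 10922 genes fell. Cyp51 was at 140.4, 104 and 83.1 CPM after saline, 65.8, 95.6 and 77.3 CPM after free R848 and 40.5 and 23.1 CPM after medium R848-BPDs, a log2 fold change of -1.75 (SE 0.30, adjusted p = 0.014). Its medium R848-BPD tumors were the lowest, while its free R848 tumors overlapped with saline. Srebf2, the gene of the sterol-responsive factor, was at 72.6, 47.9 and 67.4 CPM after saline, 51.05, 51.2 and 49.3 CPM after free R848 and 35.00 and 26.96 CPM after medium R848-BPDs, a log2 fold change of -0.99 (SE 0.20, adjusted p = 0.026). Sqle was at 45.5, 31.5 and 35.95 CPM after saline, 24.8, 33.1 and 24.6 CPM after free R848 and 16.99 and 17.97 CPM after medium R848-BPDs, a log2 fold change of -1.11 (SE 0.21, adjusted p = 0.0222). Msmo1 was at 66.9, 61.1 and 62.2 CPM after saline, 50.8, 52.5 and 46.6 CPM after free R848 and 38.4 and 29.7 CPM after medium R848-BPDs, a log2 fold change of -0.88 (SE 0.14, adjusted p = 0.0122). In Msmo1 the 3 groups did not overlap. Hmgcs1 was at 82.98, 62.5 and 60.7 CPM after saline, 55.6, 62.4 and 57.98 CPM after free R848 and 44.8 and 26.2 CPM after medium R848-BPDs, a log2 fold change of -0.92 (SE 0.23, adjusted p = 0.0478). Next to the threshold were Stard4 at -1.45 (SE 0.36, adjusted p = 0.0506), Mvd at -0.78 (SE 0.20, adjusted p = 0.0518) and Fdps at -1.24 (SE 0.33, adjusted p = 0.0636). Srebf1 was at 47.1, 44.7 and 37.1 CPM after saline, 39.5, 41.3 and 41.7 CPM after free R848 and 43.8 and 40.2 CPM after medium R848-BPDs, a log2 fold change of -0.04 (SE 0.14, adjusted p = 0.901).

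Over all 28 genes, 26 were negative in these cells with a median of -0.83 (all genes -0.00876). By role the medians were -0.94 for the fatty acid genes, -0.78 for the mevalonate genes, -0.78 from squalene to cholesterol and -0.68 for the regulators and transporters, and the roles were not tested against each other. The 28 genes and the fatty acid median include Scd1, Elovl6 and Fads2. Their counts in these cells lay near the level of MC38 markers, and those of Scd1 are not read as expression. For 21 genes both medium R848-BPD tumors lay below all saline tumors, against 19.1% of all genes. For 1 gene, Tmem97, both lay above, against 20.6% of all genes. The summed level was 1171, 1083 and 939 CPM after saline, 834, 935 and 797 CPM after free R848 and 700.4 and 532 CPM after medium R848-BPDs. None of the 10 fatty acid genes was called by edgeR against saline, with Scd2 at -1.15 (SE 0.35, adjusted p = 0.0927), Fads1 at -1.004 (SE 0.29, adjusted p = 0.0759) and Acly at -0.19 (SE 0.11, adjusted p = 0.329), and 7 of the 10 had an unadjusted p under 0.05, as had 2595 of all 10922 genes. DESeq2 called Fads1 and Scd2 of these 10, and edgeR without a filter on low counts called Elovl6, Fads1, Fasn, Scd1 and Scd2. Free R848 against saline gave 0 called genes by edgeR and by DESeq2 (which gave 18 of the 28 no adjusted p), with 5 at an unadjusted p under 0.05 (1109 of all 10922 genes), 25 of 28 negative and a median of -0.32, where 0.0183% of all genes were called. For 6 genes the free R848 tumors lay below all saline tumors, against 7.47% of all genes. Medium R848-BPDs against free R848 gave 0 called genes by edgeR, 10 at an unadjusted p under 0.05 (1491 of all 10922 genes) and 1 by DESeq2, with a median of -0.55, where 1.23% of all genes were called, and without saline replicate 2 the count was 2. Cyp51 was nearest at -1.29 (SE 0.29, adjusted p = 0.0767). The 5 calls against saline became 0 when medium R848-BPD replicate 2 was left out, 2 without saline replicate 1 and 9 without saline replicate 3, and DESeq2 gave 9. They became 0 when the free R848 tumors were left out of the fit, and none of the 5 was called among macrophage-leaning cells alone, where 1 other gene, Fads1, was. The median of medium R848-BPDs against saline stayed between -1.04 and -0.62 in all 19 alternatives. The 10 cell cycle genes summed to 697 to 1388 CPM after saline, 376 to 606 after free R848 and 319 to 648 after medium R848-BPDs in these cells. The 8 osteoclast markers summed to 194 to 780.0, 612 to 637 and 1015 to 1254 CPM, and the markers of conventional DCs type 1 (cDC1) to 229 to 345, 249.9 to 309 and 184 to 213 CPM. B cell markers (29.4 to 105, 35.2 to 55.8 and 17.7 to 18.8 CPM) and those of plasmacytoid DCs (pDCs, 115 to 118, 98.5 to 110 and 106 to 107 CPM) were also lower after medium R848-BPDs. Mitochondrial UMIs made up 3.81% to 4.08% after saline, 4.25% to 5.44% after free R848 and 3.10% and 3.53% after medium R848-BPDs. Their part in the result was not tested, nor was that of RNA released from MC38 cells, which is described below.

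Whether a treatment difference itself differed between MC38 and monocyte/macrophage cells was tested with a class-by-treatment term, with the tumor as a block. For medium R848-BPDs against saline 1 of 28 genes passed, Acss2, at a difference of log2 fold changes of -2.56 (SE 0.53, adjusted p = 0.0234), where 0.944% of 10383 genes passed in that direction. In monocyte/macrophage cells Acss2 was at 4.60, 5.21 and 10.5 CPM after saline, 5.43, 4.42 and 4.17 CPM after free R848 and 6.18 and 11.7 CPM after medium R848-BPDs, so the drop in MC38 cells stood beside a log2 fold change of 0.41 (SE 0.42, adjusted p = 0.592). The call was lost without medium R848-BPD replicate 2 or saline replicate 1, and without saline replicate 2 there were 2 calls. The median of the term over the 28 genes was -0.00153, with 14 of 28 negative. For free R848 against saline the term gave 0 calls (5 at an unadjusted p under 0.05 against 868 of all 10383 genes, 0% of all genes called), and for medium R848-BPDs against free R848 it gave 0 (6 at an unadjusted p under 0.05 against 1195 of all genes, 0.462% of all genes called), which became 2 without saline replicate 2 and 1 without saline replicate 3. Beyond Acss2, larger calls in one class than in the other are therefore not shown to be a difference between the classes. In simulated counts the term recovered 0% of genes with a true difference of -1 and 13% with a true difference of 1. Few calls therefore do not show that the classes changed alike.

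In DCs, Pmvk rose after both treatments while 6 other genes fell after medium R848-BPDs. Pmvk was at 102 and 139 CPM after saline, 402, 167 and 306 CPM after free R848 and 304 and 283 CPM after medium R848-BPDs, from which saline replicate 2 was left out because it held 7 DCs. All 5 treated tumors lay above both saline tumors, and Pmvk rose against saline by 1.33 (SE 0.34, adjusted p = 0.0169) on the log2 scale with free R848 and by 1.35 (SE 0.36, adjusted p = 0.0104) with medium R848-BPDs, where 4.37% and 8.52% of 4509 genes rose. In MC38 cells the same gene fell. Of 15 genes tested in DCs, Hmgcs1, Cyp51, Scd2, Fdps, Fasn and Sqle fell with medium R848-BPDs, 6 in all, where 8.45% of all genes fell, and Cyp51, Hmgcs1 and Scd2, 3 in all, fell with free R848, where 4.83% fell. Cyp51 was at 343 and 478 CPM after saline, 87.6, 207 and 133 CPM after free R848 and 151 and 129 CPM after medium R848-BPDs, a log2 fold change of -1.49 (SE 0.33, adjusted p = 0.00248) for medium R848-BPDs and -1.48 (SE 0.30, adjusted p = 0.00381) for free R848. Hmgcs1 was at 285 and 332 CPM after saline, 113, 118 and 206 CPM after free R848 and 113 and 96.4 CPM after medium R848-BPDs, a log2 fold change of -1.50 (SE 0.32, adjusted p = 0.00172) for medium R848-BPDs. Both kept their call for medium R848-BPDs in all 18 alternatives. The 7 calls became 4 when medium R848-BPD replicate 2 was left out, 2 without saline replicate 1 and 3 with DESeq2, and the 4 calls for free R848 became 1 without free R848 replicate 1 or saline replicate 1, 0 with a looser gate (Cyp51 included) and 2 with DESeq2, which gave 7 of the 15 genes tested there no adjusted p. Pmvk was not called without saline replicate 1 or without cells with cell cycle transcripts in either comparison, without free R848 replicate 1 or with the looser gate for free R848, and without medium R848-BPD replicate 1 for medium R848-BPDs. Medium R848-BPDs against free R848 gave 0 calls by edgeR and by DESeq2, with 0 at an unadjusted p under 0.05 (478 of all 4509 genes), where 0.643% of all genes were called. Markers of mature DCs (Ccr7, Fscn1, Ccl22 and others) summed to 5803 to 10490.0 CPM in DCs after saline, 9765 to 13850.0 after free R848 and 11260.0 to 11810.0 after medium R848-BPDs, while those of cDC1 summed to 2623 to 3387, 747 to 1604 and 1035 to 1313 CPM and those of cDC2 to 1590.0 to 2173, 613 to 1191 and 662 to 1017 CPM. The cell cycle genes summed to 818 to 1286 CPM after saline, 295 to 719 after free R848 and 206 to 504 after medium R848-BPDs, the T cell markers to 7.716 to 8.295, 13.3 to 202 and 70.2 to 90.01 CPM and the endothelial markers to 38.7 to 54.01, 66.5 to 134 and 149 to 251 CPM. The B cell markers summed to 52.5 to 61.7, 10.3 to 44.3 and 38.6 to 40.4 CPM and the monocyte markers to 378 to 600.0, 359 to 453 and 328 to 366.5 CPM. The osteoclast markers summed to 133 to 193, 41.2 to 113 and 168 to 328 CPM, the pDC markers to 77.4 to 131, 59.9 to 77.3 and 129 to 136 CPM and the fibroblast markers to 22.1 to 61.7, 13.3 to 78.7 and 19.3 to 21.3 CPM. Mitochondrial UMIs made up 3.62% and 4.27% in the 2 saline tumors used, 4.90% to 6.57% after free R848 and 4.34% and 4.95% after medium R848-BPDs. Their part in the result was not tested.

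In T cells and NK cells no gene of the pathway passed the test between treatments. In simulated counts, a log2 fold change of -1 after medium R848-BPDs was recovered for 8.51% of changed genes in T cells. In NK cells it was 46.5%, and in MC38 cells 57.4%. A lack of calls is therefore not read as a lack of change. In T cells 14 genes were tested. edgeR called 0 in medium R848-BPDs against saline, free R848 against saline and medium R848-BPDs against free R848, with 0, 1 and 1 at an unadjusted p under 0.05 (310, 141 and 336 of all genes), where 0.178%, 0% and 0.2% of all 4497 genes were called. In NK cells 27 genes were tested, and edgeR called 0 in the same 3 comparisons, with 3, 5 and 2 at an unadjusted p under 0.05 (829, 410 and 714 of all genes), where 0.786%, 0% and 0.226% of all 8399 genes were called. DESeq2 called 0 in each of these 6 comparisons among the genes to which it gave an adjusted p. The summed level in NK cells was 3108, 2015 and 2240.0 CPM after saline, 1681, 2075 and 1998 CPM after free R848 and 2302 and 1686 CPM after medium R848-BPDs, with saline replicate 1 the highest tumor. In T cells it was 2228, 1869.8 and 2046 CPM after saline, 1856, 1927 and 1724 CPM after free R848 and 2358 and 1714 CPM after medium R848-BPDs, and medium R848-BPD replicate 2 held 10 T cells. The groups overlapped in both classes, although the 10 fatty acid genes summed lower in every free R848 tumor than in every saline tumor of both classes, and in NK cells both medium R848-BPD tumors (559.6 and 816 CPM) also lay below all saline tumors (869.7 to 1207 CPM). The regulators and sterol transport genes in NK cells summed to 467 to 577 CPM after saline, 381 to 455 after free R848 and 335 to 427 after medium R848-BPDs, so that all treated tumors lay below saline. Marker sums also moved. In T cells the MC38 markers summed to 45.1 to 72.2 CPM after saline, 89.5 to 97.25 after free R848 and 74.5 to 76.4 after medium R848-BPDs. In NK cells the NK markers summed to 4242 to 4575, 4955 to 5760 and 5787 to 7458 CPM. There the cDC2 markers summed to 22.7 to 29.9, 10.5 to 17.0 and 19.0 to 25.6 CPM and the B cell markers to 203 to 394, 217 to 297 and 103 to 197 CPM. Their part in these sums was not tested.

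Levels were also compared between classes within tumors, with the tumor as a block and 9608 genes tested. Against monocyte/macrophage cells, MC38 cells were higher for 24 of 28 genes and lower for 0, where 38% of all genes were higher. The median log2 difference was 1.60 (all genes -0.0765). Fasn was higher by 2.70 (SE 0.14, adjusted p = 5.2e-20), Scd2 by 2.50 (SE 0.16, adjusted p = 2.9e-17) and Lss by 2.44 (SE 0.20, adjusted p = 4.5e-14). Scd1 at 3.77 (SE 0.18, adjusted p = 3.4e-21), Elovl6 at 3.19 (SE 0.21, adjusted p = 1.6e-16) and Fads2 at 2.99 (SE 0.31, adjusted p = 3e-11) are not ordered with them, because their counts in monocyte/macrophage cells lay near the level of MC38 markers there. Acly, Elovl5, Pmvk and Insig1 did not pass. In DCs 15 genes were higher and 2 (Fads1 and Tmem97) lower, where 17.8% and 27.3% of all genes were, with a median of 0.90. Pmvk was higher there by 3.10 (SE 0.23, adjusted p = 1.6e-14), with a mean of 272 ± 124 CPM (SD, n = 7 tumors) in DCs and 32.3 ± 6.99 CPM (SD, n = 8) in monocyte/macrophage cells on the scale common to the classes. These values pool treated and saline tumors, and in the saline tumors alone the difference of Pmvk was 1.57 (adjusted p = 0.00123). In those tumors alone, 11 genes were called in DCs and 5 in T cells. Srebf2 was also higher in DCs, at 1.66 (SE 0.15, adjusted p = 2.9e-12). T cells were higher for 15 genes and lower for 2, where 24.2% and 33.1% of all genes were, with a median of 0.69. The 2 were Fads1 and Scd1, and that of Scd1, with 2 UMIs in all T cells, is not read as a difference, since its counts in monocyte/macrophage cells are not read as expression either. In NK cells 21 genes were higher and 2 (Fads1 and Insig1) lower, where 32.5% and 37.6% of all genes were, with a median of 0.84. Stard4, the sterol carrier, was higher in both lymphocyte classes, at 2.59 (SE 0.17, adjusted p = 9.1e-17) in NK cells and 2.34 (SE 0.21, adjusted p = 1.6e-12) in T cells, and at 2.16 and 1.66 in the saline tumors alone.

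**Figure D4:**
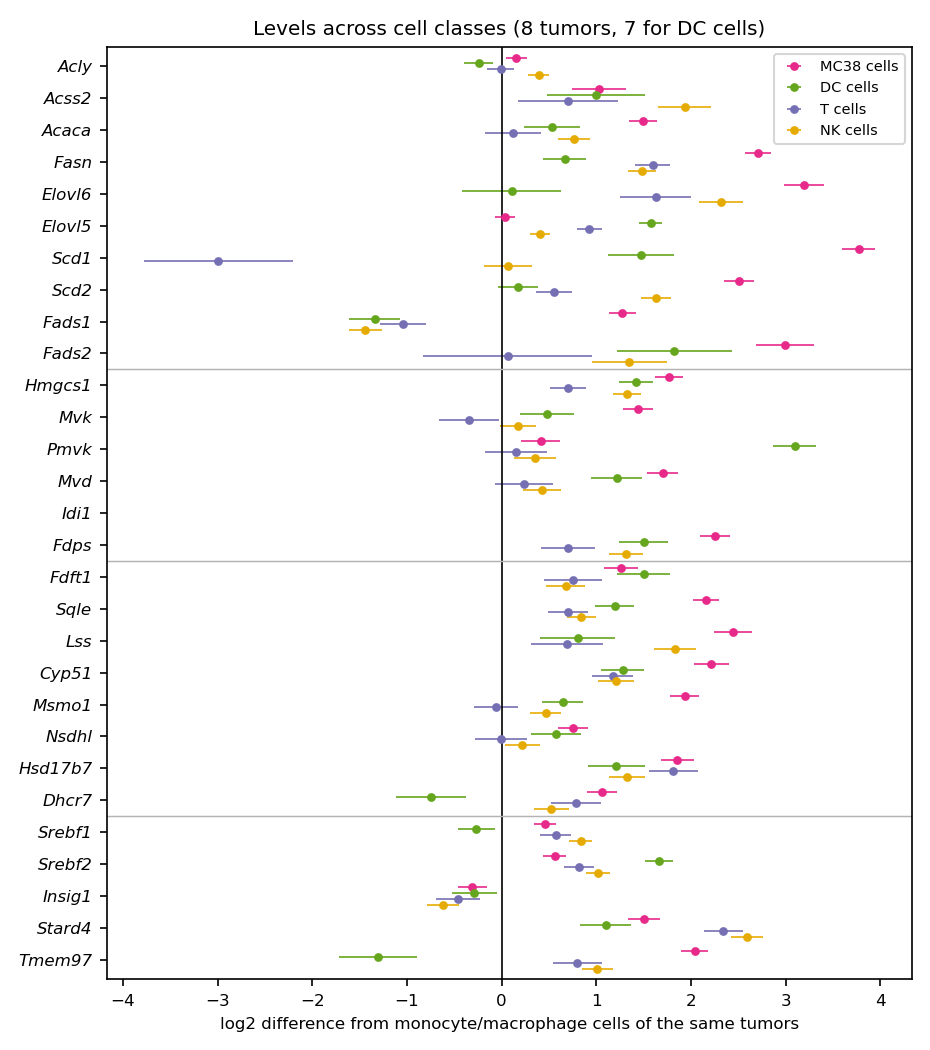
Log2 difference in level of each gene between MC38, DC, T or NK cells and monocyte/macrophage cells of the same tumors (8 tumors, 7 for DCs), with bars for the SE and a line at 0. MC38 cells lie above 0 for 27 of 28 genes, Pmvk in DCs lies at 3.10 and Stard4 in NK cells at 2.59, and the MC38 values of Scd1, Elovl6 and Fads2 rest on monocyte/macrophage counts near the marker level.

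RNA released from lysed MC38 cells can add UMIs to other cells. As a measure of it, the 8 MC38 markers in monocyte/macrophage cells stood at a median of 4.79% of their level in MC38 cells of the same tumor (2.19% to 8.49%). The gate used the same markers, and the choice of cells lowers this percentage, so that genes above it are a description and not a test. The 29 genes together stood at 21.3% (16.0% to 25.6%), and 25 of them were above the marker percentage in 8 of 8 tumors. The exceptions were Idi1, above it in 7 tumors, Fads2 in 6, Elovl6 in 5 and Scd1 in 2, with a median for Scd1 of 4.07%, so counts of Scd1 in monocyte/macrophage cells are not read here as expression. The highest medians were those of Insig1 (77.3%), Acly (64.8%) and Elovl5 (62.4%). The marker sum in monocyte/macrophage cells was 87.2 to 265.5 CPM after saline, 137 to 237 after free R848 and 117 to 131 after medium R848-BPDs. In the 2 medium R848-BPD tumors Cyp51 stood at 9.54% and 6.43%, beside 4.07% and 4.997% for the markers. In the saline tumors it stood at 15.5%, 15.98% and 10.5%, beside 4.59%, 8.49% and 2.19%. Hmgcs1, Msmo1, Sqle and Srebf2 stood at 9.85% to 28.4% in the medium R848-BPD tumors. The part of released RNA in the lower levels of these genes was not tested.

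**Figure D5:**
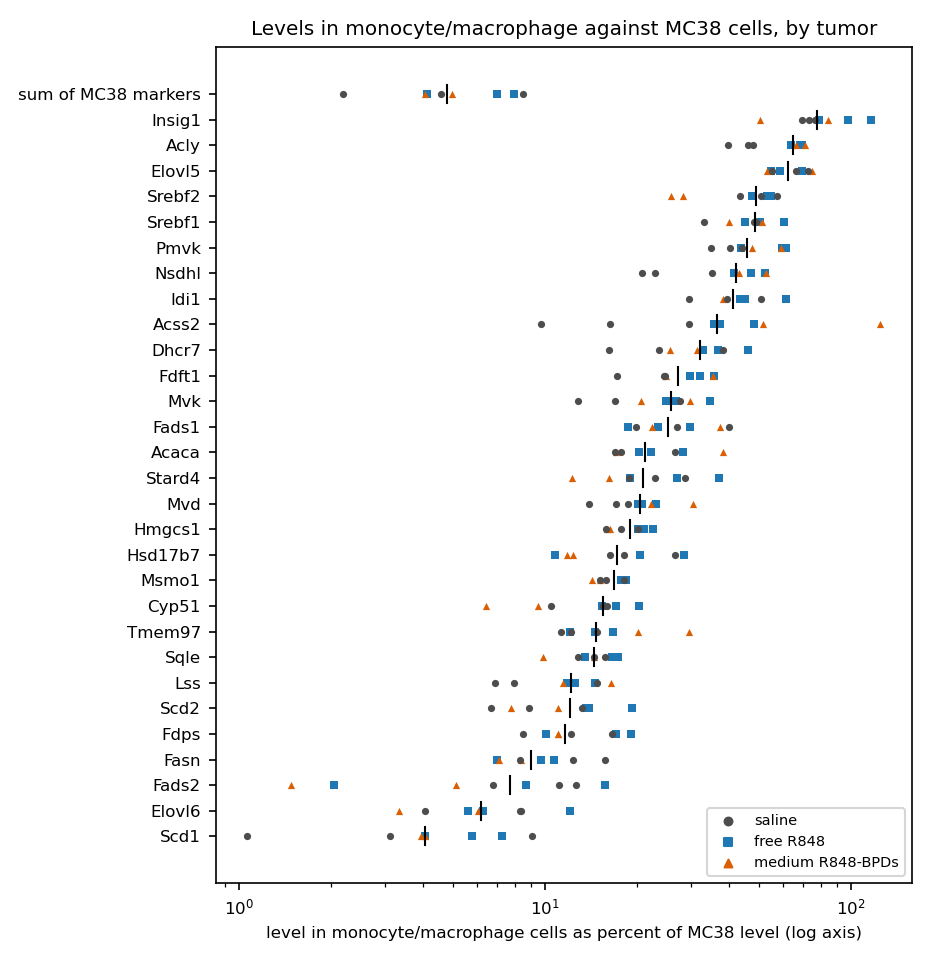
Level of each gene in monocyte/macrophage cells as a percent of its level in MC38 cells of the same tumor (log axis, CPM without further scaling), 1 point per tumor and a bar at the median, with the sum of the MC38 markers on top. Scd1 lies at the markers' percentage (median 4.07% beside 4.79%), and 25 of 29 genes lie above it in all 8 tumors.

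After each monocyte/macrophage cell was thinned to 1000 UMIs, 54.5% to 58.4% of cells held at least 1 UMI of the 29 genes after saline, 46.3% to 49.4% after free R848 and 38.2% to 43.4% after medium R848-BPDs, and the 3 groups did not overlap. At 2000 UMIs these shares were 76.2% to 80.0%, 70.5% to 71.1% and 60.7% to 62.6%, and without thinning 85.1% to 97.2%, 86.4% to 93.4% and 84.8% to 92.3%, with median depths of 3186 to 6451 UMIs per cell over the 8 tumors. In MC38 cells, with median depths of 7708 to 13294 UMIs, the shares at 1000 UMIs were 86.8% to 91.1%, 90.2% to 93.3% and 79.2% to 81.5%, and since the order of free R848 and saline went against the CPM, no order of these 2 is read from them.

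Other genes, of lipid metabolism and of the cell cycle, were taken from 6 lists of 65 genes. In MC38 cells Acat2, an enzyme of cholesterol synthesis which condenses acetyl-CoA at the head of the pathway, was at 61.5, 44.4 and 43.3 CPM after saline, 30.6, 27.8 and 31.7 CPM after free R848 and 18.1 and 15.03 CPM after medium R848-BPDs. Both medium R848-BPD tumors were the lowest and all saline tumors the highest, and against saline it fell with medium R848-BPDs, at -1.64 (SE 0.26, adjusted p = 0.0036). None of 9 genes of SREBP processing and lipoprotein uptake, 6 of liver X receptor and efflux, 15 of other fatty acid synthesis, 10 of fatty acid oxidation and 10 of the cell cycle passed in MC38 cells in this comparison, and their medians were 0.03, -0.24, -0.26, -0.00406 and -0.19. Of those, 2, 2, 7, 3 and 1 had an unadjusted p under 0.05, as had 1204 of all 9404 genes. Over all 9404 genes, 0.808% fell and 0.457% rose at the threshold. In MC38 cells no gene of the 6 lists passed for free R848 against saline or for medium R848-BPDs against free R848. Of all genes, 0.0744% fell and 0% rose in the former, and 0.372% fell and 0.489% rose in the latter.

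In monocyte/macrophage cells, genes of these lists also changed after medium R848-BPDs. Of 10 genes of the liver X receptor, efflux and oxysterol list, 2 rose and 0 fell against saline, where 3.31% of all genes rose and 2.68% fell. Smpdl3a, a phosphodiesterase gene induced by liver X receptors, was at 84.8, 65.95 and 93.2 CPM after saline, 145, 118 and 116 CPM after free R848 and 219 and 303 CPM after medium R848-BPDs, a log2 fold change of 1.69 (SE 0.19, adjusted p = 0.00342), and it also rose against free R848, at 1.04 (SE 0.19, adjusted p = 0.0439), where 0.797% of all genes rose. The 3 groups of Smpdl3a did not overlap. Nr1h3, the gene of liver X receptor alpha, was at 35.6, 60.4 and 69.3 CPM after saline, 181, 104 and 118 CPM after free R848 and 166 and 139 CPM after medium R848-BPDs, a log2 fold change of 1.48 (SE 0.29, adjusted p = 0.0246), and its treated tumors all lay above saline. Abca1, the cholesterol efflux pump, was at 254, 244 and 352 CPM after saline, 231, 268 and 297 CPM after free R848 and 463 and 439.9 CPM after medium R848-BPDs, a log2 fold change of 0.68 (SE 0.18, adjusted p = 0.0655), and Ch25h, which makes 25-hydroxycholesterol, was at 71.5, 108 and 56.5 CPM after saline, 70.4, 78.8 and 70.1 CPM after free R848 and 45.3 and 30.9 CPM after medium R848-BPDs, a log2 fold change of -1.04 (SE 0.27, adjusted p = 0.0558). Both had non-overlapping medium R848-BPD and saline tumors, in opposite directions. Lbr, a sterol reductase of the nuclear membrane from the list of other cholesterol synthesis enzymes, fell at -0.97 (SE 0.21, adjusted p = 0.0329). Cpt1a, which admits fatty acids to mitochondria for oxidation, rose, at 0.69 (SE 0.13, adjusted p = 0.0181), as 1 of 10 oxidation genes. None of 9 genes of SREBP processing and lipoprotein uptake, 15 of other fatty acid synthesis and 10 of the cell cycle passed against saline in these cells, with 3, 3 and 5 at an unadjusted p under 0.05 (2595 of all 10922 genes).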

How the data were processed

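The authors deposited 1 table of raw UMI counts per gene and cell for each of 8 tumors. The submitters' processing notes name bcl2fastq and mm10, and the aligner and gene annotation are not given in the sources used here. Kept cells had above 400 and below 10000 genes, a UMI total below 50000 and a mitochondrial share no higher than 15%, and doublets were treated only through the gate. A cell entered a class with at least 3 of 8 markers of a type and at least 2 more than for any other class, and class names are therefore rebuilt from markers and not taken from the authors. Counts were summed per tumor and class (at least 10 cells) and tested with edgeR 4.0.16 (quasi-likelihood, filter on low counts, Benjamini-Hochberg over all genes tested, 3 groups in 1 fit), with limma 3.58.1 in R 4.3.3. DESeq2 1.42.0, other size factors, no filter, 2 groups alone, other gates and cell limits, cells without cell cycle transcripts (at least 2 of 10 genes) left out, omission of each tumor in turn and a replicate block were alternatives, and leaving out shared barcodes was added after the data were seen. Scripts were tested on simulated data. Tables and figures were made with Python 3.11.15, pandas 2.3.3, numpy 2.4.6, scipy 1.17.1 and matplotlib 3.10.9. Totals per tumor were 5867590 to 12422614 UMIs, and intervals cover counting error only. The members, lists and tests were chosen with earlier results of these data known. All members are named. Of the companion lists, genes were named from those called in MC38 or monocyte/macrophage cells (at most 3 per list and comparison, by lowest adjusted p) with Ch25h and Abca1. Some genes that meet this rule are not reported here. Gene positions are from GENCODE vM21 (GRCm38).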

Additional observations from a re-analysis of the deposited data

Results flagged for a closer look

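The treatment difference of Acss2, the cytosolic acetyl-CoA synthetase gene, differed between MC38 cells and monocyte/macrophage cells. For medium R848-BPDs against saline, the log2 fold change in MC38 cells minus that in monocyte/macrophage cells was -2.56 (SE 0.53, adjusted p = 0.0234, edgeR's quasi-likelihood test of the class-by-treatment term). It kept its call in 11 of 13 alternatives, and it was not called without medium R848-BPD replicate 2 or without saline replicate 1. The cause was not tested. Single outlying tumors were not tested in groups of 2 or 3 tumors.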

How the results depend on the processing

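The 22 counts of called genes had 366 values under alternatives, of which 311 were within 1.5 times the reported count, and 1606 of 1827 values of single called genes kept their call. With 1 tumor left out, the count ranged in MC38 cells from 2 to 19 for medium R848-BPDs against saline, 0 to 4 for free R848 against saline and 0 to 3 for medium R848-BPDs against free R848. In monocyte/macrophage cells it ranged from 0 to 9 for medium R848-BPDs against saline and 0 to 2 against free R848. In DCs it ranged from 1 to 4 for free R848 and 2 to 7 for medium R848-BPDs against saline, and for the class-by-treatment term from 0 to 2 for medium R848-BPDs against free R848 and 0 to 2 against saline. Without a filter on low counts, the count was 3 for medium R848-BPDs against free R848 and 8 for free R848 against saline in MC38 cells, 6, 1 and 14 for medium R848-BPDs against free R848, free R848 against saline and medium R848-BPDs against saline in monocyte/macrophage cells, 1 for each treatment against saline in NK cells and 1 for the term of medium R848-BPDs against free R848. With DESeq2 it was 1 against free R848 and 9 against saline in monocyte/macrophage cells and 2 and 3 for free R848 and medium R848-BPDs against saline in DCs. With only the 2 groups compared, it was 3 in MC38 cells and 2 in monocyte/macrophage cells against free R848, and 0 in monocyte/macrophage cells against saline. A looser gate gave 3 in MC38 cells against free R848, 8 in monocyte/macrophage cells against saline and 0 in DCs for free R848, and a stricter gate gave 3 in monocyte/macrophage cells against saline, 2 in DCs for free R848 and 2 for the term of medium R848-BPDs against saline. Without cells with cell cycle transcripts, MC38 cells gave 0 against free R848, 0 for free R848 and 1 for medium R848-BPDs against saline, and DCs gave 1 for free R848, while T cells against saline could not be fitted. Macrophage-leaning cells alone gave 1. Levels in saline tumors only gave 11 called genes in DCs and 5 in T cells, and Fdps in T cells against monocyte/macrophage cells turned to -0.76. The cause was not tested.

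Replicate numbers did not pair the tumors, with correlations of same-numbered tumors from -0.0678 to 0.153 in MC38 cells and from -0.217 to 0.313 in monocyte/macrophage cells. With a replicate block 3 of 15 counts changed, to 6 for medium R848-BPDs against saline in monocyte/macrophage cells and to 3 and 5 for free R848 and medium R848-BPDs against saline in DCs. Of the 5 calls in monocyte/macrophage cells, Cyp51, Msmo1 and Srebf2 were also called with the block and Hmgcs1 and Sqle were not, while Fads1, Fasn and Fdps were added. In DCs the block did not call Hmgcs1 for free R848, nor Fdps and Sqle for medium R848-BPDs. In MC38 cells the block left the same 17, 4 and 1 genes.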

Other observations

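The 1674 cells that met no gate held 54369 UMIs of the 29 genes, more than the 39446 in MC38 cells. Their summed level was 4833, 4489.8 and 3362 CPM after saline, 3470.3, 3111 and 3629 CPM after free R848 and 2999 and 2249 CPM after medium R848-BPDs, as CPM of the class sum without further scaling. Both medium R848-BPD tumors were the lowest of the 8. The free R848 tumors at 3470.3 and 3629 CPM lay above the lowest saline tumor, and that at 3111 CPM lay below it. The MC38 markers stood at 2282 to 3344 CPM and the macrophage markers at 578 to 1091 CPM in these cells. In gated MC38 cells the MC38 markers stood at 2494 to 3900 CPM, after further scaling. MC38 cells can therefore be among the cells without a gate. The results in MC38 cells rest on the 772 gated cells, 38 to 243 per tumor.

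Classes with at least 10 cells in few tumors were not compared. In fibroblast-like cells the summed level was 4064 CPM in saline replicate 1 (11 cells, 95% exact Poisson interval 3796 to 4346), 2554 CPM in medium R848-BPD replicate 1 (15 cells, 2372 to 2746) and 1398 CPM in medium R848-BPD replicate 2 (37 cells, 1279 to 1526). In neutrophil-like cells it was 363 CPM in free R848 replicate 3 (237 to 532), 374 CPM in medium R848-BPD replicate 1 (228 to 578) and 597 CPM in medium R848-BPD replicate 2 (420.0 to 822). In cells of the osteoclast markers it was 1156 CPM in free R848 replicate 2 (1066 to 1252) and 1654 CPM in saline replicate 3 (1548 to 1764).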
